A study of Mus musculus with 18 samples.

Results

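The difference between Mtdh knockout (KO) and wild-type (WT) mouse hepatocytes that had the same direction and a similar size under 3 stimuli was described. Hepatocytes, the metabolic cells of the liver, came from KO and WT mice matched for age and free of tumours. They were treated with TNFa, with TGFb or with medium conditioned by Kupffer cells after exposure to Py8119-EVPs (CM, where Py8119 is a mouse breast cancer line), and their RNA was sequenced. Each of the 6 groups, KO and WT with TNFa, KO and WT with TGFb, and KO and WT with CM, held 3 libraries, so that 9 KO libraries were compared with 9 WT libraries with treatment as a covariate. All libraries received a stimulus, and no untreated group was among them. Whether the deletion was confined to hepatocytes, which part of Mtdh it removed, and the sex of the mice are not given in the labels. Nor is it given whether replicate 1 of one treatment came from the same mouse as replicate 1 of another, so p-values measure the spread between libraries.

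The genes described here are those with a genotype difference of one direction and similar size in all 3 treatments. A gene was counted as shared when 3 conditions were met. Its KO against WT difference had a limma adjusted p below 0.05 over all 18 libraries, the difference had the same sign within TNFa, TGFb and CM, and the smallest of the 3 differences was at least 0.5 of the largest. Of 14455 genes tested, 2715 (18.8%) passed the genotype test, 1482 higher in KO (10.3%) and 1233 lower in KO (8.53%). Of these, 2552 had one sign in the 3 treatments, and 992 (6.86% of the genes tested) were shared, 528 higher (3.65%) and 464 lower (3.21%). The 3 within-treatment comparisons have no library in common. All differences below are on the scale of log2(normalized value + 1), KO minus WT, with their standard error, which understates the change of genes with low values. A gene is said to have risen or fallen where its limma adjusted p over the 18 libraries was below 0.05.

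The libraries were those of hepatocytes by their defining markers. Alb, encoding albumin, lay between 1290000 and 2730000 normalized units in every library, and Hnf4a, a hepatocyte transcription factor, between 2487 and 6627. The T cell marker Cd3e was near absent, with medians of 0 in both genotypes. Markers of Kupffer cells and of sinusoidal endothelium were present at lower levels and are taken up below. Estimated depth ran from 19.4 to 35.6 M reads on protein-coding genes per library.

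MTDH, also called AEG-1 or LYRIC, is a membrane-anchored protein best known from cancer. It binds SND1, a nuclease-domain protein of the RNA silencing machinery, and has been reported to bind the p65 subunit of NF-kappaB and the retinoid X receptor (RXR). RXR is the obligate partner of the nuclear receptors for retinoic acid, oxysterols, bile acids, fatty acids and xenobiotics, which together set much of hepatocyte metabolism. Interferon signalling, another arm that appears in the results, runs through a complex that holds STAT2 and IRF9, which binds an element with a pair of GAAA cores in the promoters of antiviral genes.

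The promoter windows below belong to genes of the shared set and are shown because they carry the letters that the interferon and retinoic acid factors are known to read. They are reference sequence from RefSeq (GRCm38.p6), not sequence from these libraries, and the letter patterns were chosen after the values had been seen. In the interferon genes, all lower in KO, capitals mark 2 copies of GAAA in the same orientation with 2 bases between them, on either strand. In Rarb and Cyp26a1 they mark 2 half-sites (AGTTCA or AGGTCA, and likewise GGTTCA or GGGTCA) in the same orientation with 5 bases between them, on either strand. Stat2, which encodes the interferon transcription factor itself, is given at chr10:128270256-128270305 on the plus strand. Gbp2 (chr3:142620584-142620633 on the plus strand) and Gbp7 (chr3:142530263-142530312 on the plus strand) encode guanylate-binding proteins, and Ifit1 (chr19:34640765-34640833 on the plus strand) encodes an antiviral RNA-binding protein. Irgm2 (chr11:58214893-58214942 on the plus strand) and Igtp (chr11:58199502-58199551 on the plus strand) encode immunity-related GTPases. Rarb (chr14:16575493-16575549 on the minus strand) encodes a retinoic acid receptor and Cyp26a1 (chr19:37697756-37697807 on the plus strand) an enzyme that breaks down retinoic acid.
Stat2: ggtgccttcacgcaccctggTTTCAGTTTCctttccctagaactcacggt
Gbp2: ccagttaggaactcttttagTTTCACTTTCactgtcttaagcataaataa
Gbp7: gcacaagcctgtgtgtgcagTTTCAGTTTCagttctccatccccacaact
Ifit1: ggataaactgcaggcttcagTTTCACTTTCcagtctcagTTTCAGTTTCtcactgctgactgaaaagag
Irgm2: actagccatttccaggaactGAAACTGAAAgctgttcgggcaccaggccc
Igtp: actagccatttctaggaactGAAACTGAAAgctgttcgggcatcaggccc
Rarb: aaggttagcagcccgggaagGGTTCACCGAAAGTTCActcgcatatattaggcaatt
Cyp26a1: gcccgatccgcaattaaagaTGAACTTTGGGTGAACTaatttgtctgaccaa
Promoter windows reached from 250 bases before to 50 bases after the gene start. In the 11152 tested genes with such a window, the paired GAAA occurred in 420 (3.77%) and the repeat with 5 bases between half-sites in 7 (0.0628%). Among the 18 interferon-stimulated genes that were shared and lower, 14 had a window and 10 of these held the paired GAAA. Of the other 37 tested interferon-stimulated genes, 26 had a window and 11 of these held it. Besides Rarb and Cyp26a1, the other 5 genes with the repeat did not pass the genotype test (adjusted p from 0.18 to 0.87). With fewer than 80% of the genes matched to a window, no set of shared genes can be compared with the rest on promoter letters. A match describes the letters and says nothing of binding.

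Mtdh itself (ENSMUSG00000022255, chromosome 15, 34082840 to 34145770 on mm39) stood at 581, 829 and 973 normalized units (lowest, median and highest of 9) in KO libraries, against 10063, 12873 and 13725 in WT libraries. The 2 genotypes were far apart in every treatment. The difference was -3.95 ± 0.07 (adjusted p = 3.1e-28), and it was -4.17 with TNFa, -3.80 with TGFb and -3.88 with CM. Of 20 tested genes of Mtdh partners and RNA silencing, 1 rose and 6 fell, beside 10.3% and 8.53% of all genes tested. The median difference of the list was -0.06, and 1 gene was shared in each direction. Ago1, encoding an Argonaute protein, was shared at -0.37 ± 0.08 (adjusted p = 4.7e-04). Cldn1 was shared and higher at 0.21 ± 0.06 (adjusted p = 0.015). The Cldn1 call was lost with libraries scaled to one total and without the TNFa or the TGFb libraries. Snd1, the best-known partner, did not pass the test at -0.02 ± 0.08 (adjusted p = 0.91), with means of 1288 in KO and 1317 in WT.

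The chromosome that carries Mtdh held a high density of shared genes close to it. In windows of 10 Mb, 13 of 43 tested genes between 30 and 40 Mb of chromosome 15 were shared (30.2%, Mtdh included), and 4 of 11 between 40 and 50 Mb (36.4%). These were the 2 highest shares among 259 windows with at least 10 tested genes, whose median was 6.67%. Counted by distance from the start of Mtdh and without it, 7 of 20 tested genes within 2.5 Mb were shared (35%), 4 of 20 between 2.5 and 5 Mb (20%), and 3 of 17 between 5 and 10 Mb (17.6%). Between 40 and 75 Mb away the share was 27 of 381 (7.09%), near the 6.86% of all genes tested. The neighbours moved in both directions.

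Rida, which encodes an imine deaminase, had 3728, 7325 and 8753 units in KO libraries, against 1736, 2699 and 3006 in WT libraries. The genotypes did not overlap, and the difference was 1.36 ± 0.06 (adjusted p = 5.5e-17). Oxr1, which encodes an oxidation resistance protein, differed by 0.82 ± 0.07 and was among the most even of all rises (0.85 with TNFa, 0.81 with TGFb and 0.82 with CM). Further rises near Mtdh were in Dpys, an enzyme of pyrimidine breakdown (1.08 ± 0.10), Slc25a32, a mitochondrial folate carrier (0.76 ± 0.08), and Cct5, a chaperonin subunit (0.75 ± 0.07). Falls were seen in Vps13b, a lipid transfer protein gene (-0.77 ± 0.05), Cpq, a carboxypeptidase gene (-0.70 ± 0.07), and Pabpc1, encoding the main cytoplasmic poly(A)-binding protein (-0.56 ± 0.06). Vps13b had 2132, 2526 and 2938 units in KO libraries, against 3993, 4175 and 4881 in WT libraries, with no overlap. The ribosomal protein gene Rpl30 also fell (-0.71 ± 0.11), but processed copies in the genome make the counts of such genes uncertain. Outside chromosome 15 lay 941 of the 992 shared genes.

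**Figure D1:**
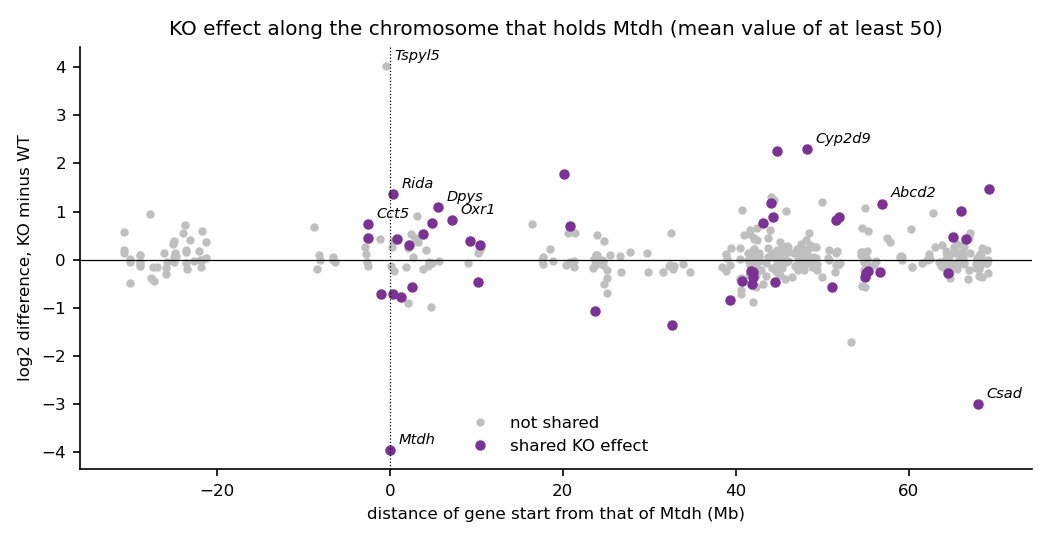
Log2 difference, KO minus WT, of each tested chromosome 15 gene with a mean value of at least 50 (vertical axis), against the distance of its start from that of Mtdh in Mb (horizontal axis), with shared genes in purple and others in grey. Purple points crowd around 0 Mb in both directions (Rida at 1.36, Oxr1 at 0.82), while Csad at -3.005 lies 68 Mb away.

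Rises were larger than falls. The median size of the shared differences was 0.87 for the 528 genes higher in KO, a 1.83-fold change, with quartiles of 0.51 and 1.26. For the 464 genes lower in KO it was 0.37, a 1.29-fold change, with quartiles of 0.28 and 0.56. A difference of at least 1 was reached by 218 higher and 40 lower genes. The falling genes were the more abundant, with a median normalized value of 1549, against 513 for the rising genes and 331 for all genes tested. They also spanned more of the genome, with a median gene length of 46.6 kb, against 23.02 kb for rising genes and 23.2 kb for all genes tested. These are descriptions with no test. Since high values allow smaller differences to pass, the share of tested genes that were shared ran from 1.86% below a mean value of 50 to 12.4% at 5000 and above.

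The shared set held few genes whose genotype difference was itself called as different between treatments. An interaction F-test called 246 of all genes tested (1.7%), and 9 of the 992 shared genes were among them, against 106 of the 1723 genes that passed the genotype test without being shared. The rule on similar size used the same differences, so this is a description. KO and WT libraries did not overlap in each of the 3 treatments for 537 shared genes, against 809 of all genes tested (5.6%). All 9 KO libraries lay on one side of all 9 WT libraries for 146 shared genes, against 177 of all genes tested (1.22%, 0.664% higher and 0.56% lower in KO). The rule chose shared genes by their genotype difference in these same libraries, so the counts without overlap are descriptions too. Over all genes tested, 7.89% passed within TNFa, 12.2% within TGFb and 9.39% within CM. Of the shared genes, 338 (34.1%) passed the test in each treatment and 351 (35.4%) in none. Just inside the 0.5 limit on similar size were Ptp4a2 (0.5005), Nckap1 (0.5005) and Car14 (0.5008), and just outside it Pea15a (0.4999), Syvn1 (0.4995) and Trmt10c (0.4995). Setting the limit at 0.67 left 407 shared genes and setting it at 0.33 gave 1646.

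Among the large shared falls was that of Csad (chromosome 15, 102085434 to 102113159 on mm39), which encodes cysteine sulfinic acid decarboxylase, an enzyme of taurine synthesis. With TNFa the KO libraries held 62.7, 60.9 and 108 units, against 644, 729 and 799 in WT libraries. With TGFb these were 157, 205 and 273 in KO and 1229, 1369 and 1267 in WT libraries, and with CM 191, 217 and 110.0 in KO and 1457, 1659 and 1272 in WT libraries. Every KO library was below every WT library, and the difference was -3.005 ± 0.14 (adjusted p = 2.3e-16). Of 22 tested genes of taurine and sulfur amino acid metabolism, 15 rose and 2 fell, beside 10.3% and 8.53% of all genes tested. Cdo1, which acts one step before Csad, rose by 0.26 ± 0.07. That call was lost without the TGFb libraries (0.15, adjusted p = 0.3036) and without the CM libraries (0.19, adjusted p = 0.1377). Csad thus stood against most of its list.

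A pair of signalling genes fell as well. Ntrk2, encoding the neurotrophin receptor TrkB, had 3.28, 19.7 and 44.9 units in KO libraries, against 68.1, 135 and 192 in WT libraries, with a difference of -2.79 ± 0.37. Srgap3, encoding a GTPase-activating protein, had 416, 611 and 808 units in KO libraries, against 1938, 2011 and 2762 in WT libraries (-1.79 ± 0.09). Neither of them overlapped between genotypes. The beta-globin gene Hbb-bs, a red cell transcript, was low throughout, at 0, 9.82 and 65.4 in KO and 39.0, 79.6 and 152 in WT libraries (-3.12 ± 0.49), and its genotypes overlapped across treatments.

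Other large falls were in enzymes of conjugation and oxidation and in signalling genes. They were Sult3a1, a sulfotransferase gene (-1.75 ± 0.12), Ugt2b37, a glucuronosyltransferase gene (-1.63 ± 0.23), and the cytochrome P450 gene Cyp3a44 (-1.44 ± 0.08). Il22ra1, the receptor subunit through which hepatocytes sense interleukin 22, differed by -1.19 ± 0.17. Rgs20 (-1.26 ± 0.22), Slfn4 (-1.32 ± 0.18) and Sytl5 (-1.32 ± 0.18) were of similar size. The most even falls were smaller. Klf13, a zinc-finger transcription factor gene, differed by -0.55 with TNFa, -0.50 with TGFb and -0.50 with CM. Creb3l2, a membrane-bound transcription factor of the secretory pathway (-0.61 ± 0.06), Cgn, encoding the tight-junction protein cingulin (-0.62 ± 0.06), Slpi, a secreted protease inhibitor (-0.81 ± 0.06), Prg4, encoding lubricin (-0.68 ± 0.09), and the kinase gene Pak6 (-1.06 ± 0.27) were of the same kind. Pak6 did not pass without the TGFb libraries (adjusted p = 0.0839).

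The largest rises included a hepcidin gene. Hamp2 and Hamp encode hepcidins, of which the Hamp product is the hormone that lowers iron export. Hamp2 stood at 2463, 3909 and 5246 units in KO libraries, against 586, 986 and 1181 in WT libraries, with no overlap and a difference of 2.04 ± 0.08 (adjusted p = 3.6e-18). Hamp differed by 1.14 ± 0.06, almost the same in each treatment (1.16 with TNFa, 1.18 with TGFb and 1.09 with CM). The pair is similar in sequence, and the split of reads between them is uncertain. Upp2, a uridine phosphorylase gene, had 1353, 3713 and 4226 units in KO libraries, against 397, 789 and 987 in WT libraries (2.02 ± 0.09). Hao2, a peroxisomal hydroxyacid oxidase gene, was far less abundant at 72.9, 248 and 329.6 in KO and 0.759, 29.5 and 142 in WT libraries, and its difference of 2.83 ± 0.48 carries a wide error.

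Tmem26 (1.94 ± 0.26) and Lrtm1 (2.40 ± 0.42), which encode membrane proteins, rose and had low values in both genotypes. Ranked by the smallest of the differences in the 3 treatments, the remaining names among the 12 largest rises were the drug-metabolism genes Sult2a5, Cyp2d9 and Cyp2b13, the histidine enzyme gene Hal, and the macrophage or lymphocyte genes Cd5l, Clec4f and Ly9. The most even rises were Thnsl2, a threonine synthase-like gene (1.17 with TNFa, 1.21 with TGFb and 1.18 with CM), Slc16a5, a monocarboxylate transporter gene (1.14 ± 0.19), Oxr1, Hamp, Agxt and Syk. Agxt encodes the peroxisomal enzyme that detoxifies glyoxylate. It had 840.4, 1594 and 2201 units in KO libraries, against 369, 603 and 928 in WT libraries, and its difference was 1.46 ± 0.09 (adjusted p = 4.4e-14). Syk, a kinase of immune cells, differed by 1.26 ± 0.16.

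**Figure D2:**
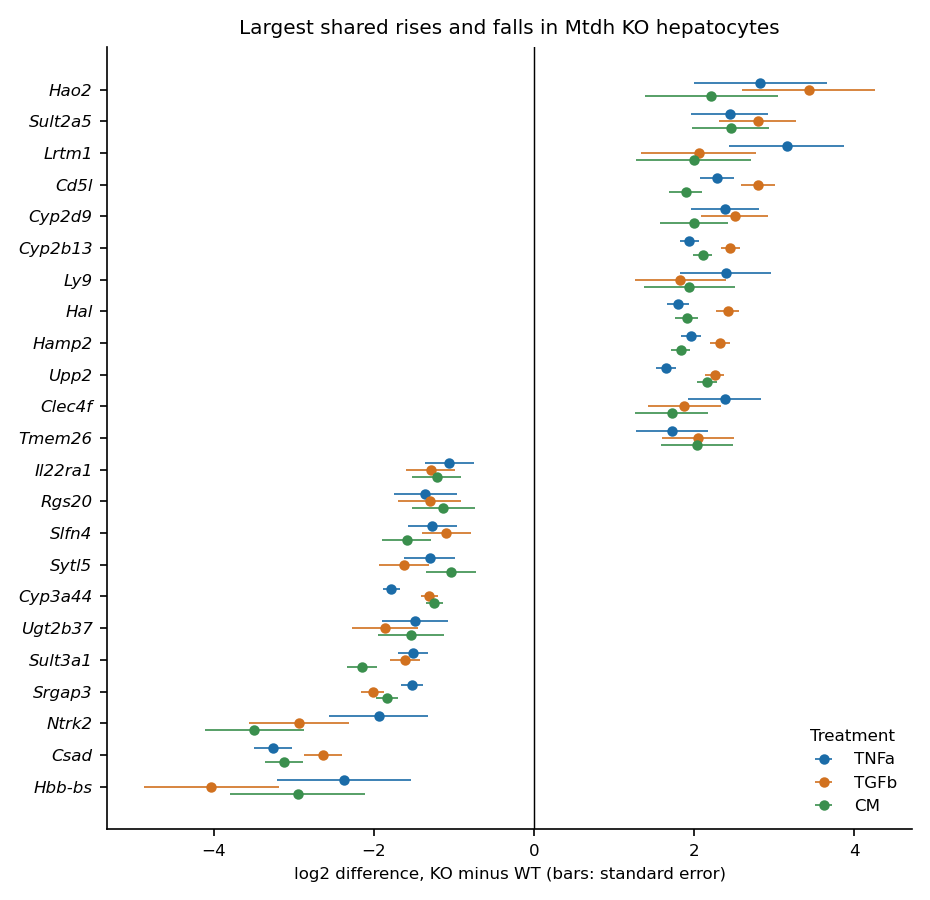
Log2 difference, KO minus WT, of the 12 largest shared rises and 11 of the 12 largest shared falls by the smallest of their 3 differences (rows), with 1 point for each treatment and bars for the standard error (3 KO and 3 WT libraries). All 3 points of each gene lie on one side of 0, which the rule for shared genes requires. The points of Cyp2b13 and Hamp2 lie within narrow bars, while Hao2 and Hbb-bs have the widest.

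**Figure D3:**
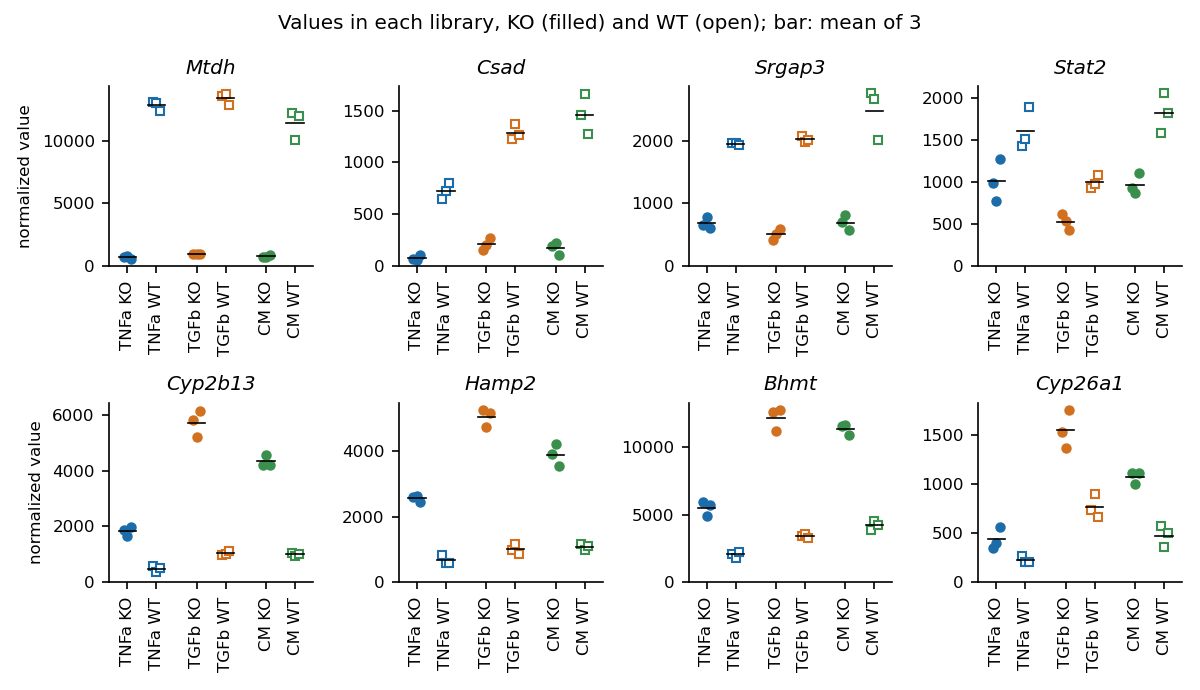
Deposited normalized value of 8 shared genes in each library (points) and the mean of 3 (bar), by treatment and genotype, KO filled and WT open. Mtdh, Csad, Srgap3 and Stat2 are lower in KO in each treatment, and Cyp2b13, Hamp2, Bhmt and Cyp26a1 are higher in KO in each treatment. One direction in each treatment is a condition of the rule for shared genes.

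Of the 33 gene lists, that of amino acid breakdown held the largest share of shared rises. Hepatocytes take amino nitrogen to urea and the carbon skeletons to glucose or the citric acid cycle. Of 78 tested genes of amino acid breakdown and the urea cycle, 66 rose, 1 fell and 11 did not pass. Of the 78, 39 were shared and higher (50%) and 0 were shared and lower, beside 3.65% and 3.21% of all genes tested. The median difference of the list was 0.74, against -0.003 over all genes tested. By treatment the list median was unequal, at 0.53 with TNFa, 1.06 with TGFb and 0.64 with CM. The exception was Gldc, of the glycine cleavage system, at -0.28 ± 0.09, a call that was lost without the TNFa libraries (adjusted p = 0.1656) and without the CM libraries (adjusted p = 0.1988). With a limit of 0.67 on similar size 15 of the 78 were shared.

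In the urea cycle 5 of 8 genes were shared. Cps1, encoding the mitochondrial entry enzyme carbamoyl-phosphate synthase, had 43565, 79200.2 and 93822 units in KO libraries, against 24414, 35768 and 42497 in WT libraries. The genotypes did not overlap, and the difference was 1.07 ± 0.07 (adjusted p = 1.2e-12). It was unequal between treatments (0.77 with TNFa, 1.38 with TGFb and 1.05 with CM, interaction adjusted p = 0.021). Arg1, the arginase that releases urea, differed by 1.002 ± 0.06, Ass1, argininosuccinate synthase, by 1.09 ± 0.07, and Otc, ornithine transcarbamylase, by 0.84 ± 0.07. Slc25a15, the mitochondrial ornithine carrier, differed by 0.97 ± 0.07.

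In the methionine and betaine cycle 6 of 11 genes were shared. Bhmt, which remethylates homocysteine from betaine, had 5929.6, 4862 and 5727 units in KO libraries with TNFa, against 2111, 1798 and 2274 in WT libraries. With TGFb it had 12562, 11176 and 12723 in KO and 3389, 3559 and 3253 in WT libraries, and with CM 11518, 11590.3 and 10883 in KO and 3884, 4504 and 4240.1 in WT libraries. Its difference was 1.56 ± 0.07 (adjusted p = 1.7e-17), with no overlap. Gnmt, the glycine methyltransferase that consumes S-adenosylmethionine, differed by 1.43 ± 0.07, and Mat1a, which makes S-adenosylmethionine in adult liver, by 1.13 ± 0.06. Bhmt, Gnmt and Mat1a lie at successive steps of the same cycle. Each was higher in KO in each treatment, which the rule for shared genes requires.

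Phenylalanine and tyrosine breakdown gave the highest share of the amino acid routes, with 7 of 8 genes shared. Along that route the differences were 0.90 ± 0.07 for Tat, 1.14 ± 0.08 for Hpd, 1.38 ± 0.10 for Hgd and 0.96 ± 0.07 for Gstz1. These encode enzymes from tyrosine aminotransferase to maleylacetoacetate isomerase. Of 7 tryptophan and kynurenine genes, 4 were shared, among them Tdo2, the first enzyme of the route (1.04 ± 0.06), and Kynu (1.10 ± 0.08). Of 4 histidine genes, 3 were shared, led by Hal, which encodes histidine ammonia-lyase. Hal had 979, 2008 and 2414 units in KO libraries, against 267, 422 and 623 in WT libraries, with no overlap and a difference of 2.04 ± 0.10 (adjusted p = 1.2e-16). Sds, encoding serine dehydratase, differed by 1.71 ± 0.13 and was 1 of 4 shared among 10 serine, glycine and glyoxylate genes. The 4 transaminases of glutamate held no shared gene, and 2 of them rose.

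Of 46 tested genes of glucose production and glycolysis, 13 rose and 3 fell, beside 10.3% and 8.53% of all genes tested. Of the 46, 7 were shared and higher (15.2%) and 2 shared and lower (4.35%), beside 3.65% and 3.21%. G6pc, the glucose-6-phosphatase, differed by 1.15 ± 0.12, and Slc2a2, the liver glucose transporter, by 1.24 ± 0.07. Pck1, the gluconeogenic carboxykinase, had 3856, 10440.5 and 13698 units in KO libraries, against 1785, 4461 and 7112 in WT libraries (1.16 ± 0.08, at 1.17 with TNFa, 1.52 with TGFb and 0.79 with CM). Slc2a2 and Pck1 belong to the 9 shared genes with a called interaction (adjusted p = 0.032 and 0.023).

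Zonation genes moved on both sides of the lobule. Periportal genes are highest near the portal vein, and 12 of 25 were shared and higher (1 lower), with 17 risen and 4 fallen. Pericentral genes are highest near the central vein, and 9 of 28 were shared and higher (1 lower), with 18 risen and 1 fallen. Of all genes tested, 10.3% rose, 8.53% fell, 3.65% were shared and higher and 3.21% shared and lower. Most of the periportal genes are enzymes of the amino acid and glucose lists above. The pericentral ones included Oat, ornithine aminotransferase (1.21 ± 0.08), and the cytochrome P450 gene Cyp2c38 (1.29 ± 0.11). General hepatocyte identity genes showed less, with 20 of 39 risen, 4 fallen and 7 shared. Alb did not pass at 0.29 ± 0.17 (adjusted p = 0.29).

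**Figure D4:**
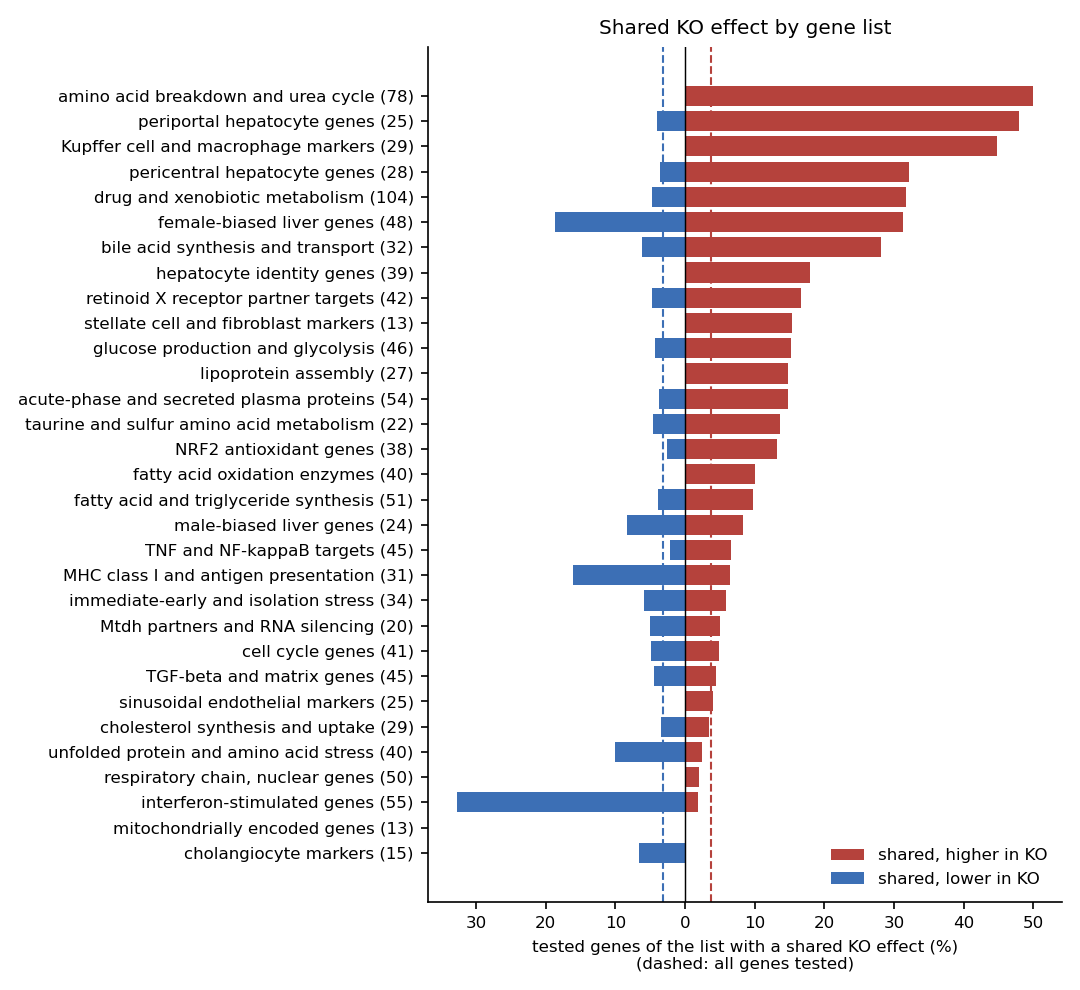
Share of the tested genes of each list (rows, number tested in brackets) with a shared KO effect, higher in KO to the right in red and lower in KO to the left in blue, in percent, with dashed lines for all genes tested (3.65% and 3.21%). Amino acid breakdown reaches 50% to the right and interferon-stimulated genes 32.7% to the left.

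Of 104 tested genes of drug and xenobiotic metabolism, 61 rose and 9 fell, beside 10.3% and 8.53% of all genes tested. Of the 104, 33 were shared and higher (31.7%) and 5 shared and lower (4.81%), beside 3.65% and 3.21%. The median difference of the list was 0.43, at 0.22 with TNFa, 0.64 with TGFb and 0.45 with CM. Gsta2, a glutathione transferase gene, had 339.6, 484 and 572 units in KO libraries, against 49.6, 102 and 213 in WT libraries, with no overlap and a difference of 2.14 ± 0.18 (adjusted p = 1.5e-10). Gstm3 differed by 1.89 ± 0.20 and Gsta3 by 1.07 ± 0.07. Cyp2b13 had 1674, 4214 and 6146 units in KO libraries, against 379, 989 and 1123 in WT libraries, with a difference of 2.17 ± 0.08 (adjusted p = 5.5e-19). Several of these families (Cyp2b, Cyp2c, Cyp3a, Sult2a, Gstm) hold near-identical copies, and the split of reads between copies is uncertain. Among NRF2 antioxidant genes, which share those transferases, 17 of 38 rose and 4 fell, and 5 were shared and higher.

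Of 32 tested genes of bile acid synthesis and transport, 19 rose, 3 fell and 10 did not pass, where 10.3% of all genes tested rose and 8.53% fell. Of the 32, 9 were shared and higher (28.1%) and 2 shared and lower (6.25%), beside 3.65% and 3.21%. Cyp7a1, the rate-limiting enzyme of bile acid synthesis, had 247, 612 and 916 units in KO libraries, against 143, 256 and 401 in WT libraries. The groups overlapped across treatments but not within any of them, and the difference was 1.07 ± 0.12 (adjusted p = 8.3e-08). Klb, the co-receptor through which FGF15 acts on hepatocytes, differed by 1.13 ± 0.19. Slc10a1, the bile acid uptake carrier NTCP, differed by 0.97 ± 0.08, Slco1b2, an organic anion carrier, by 0.83 ± 0.06, and Akr1d1, a reductase of the synthesis route, by 1.22 ± 0.07. Slco1a1, another organic anion carrier, went the other way, with 225, 342 and 427 units in KO libraries, against 435, 676 and 952 in WT libraries (-0.97 ± 0.12).

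Genes known to differ between the sexes in mouse liver split in both directions. Of 48 tested female-biased genes, 20 rose and 16 fell, beside 10.3% and 8.53% of all genes tested. Of the 48, 15 were shared and higher (31.25%) and 9 shared and lower (18.75%), beside 3.65% and 3.21%. Sult2a5 (2.57 ± 0.27), Sult2a3 (2.06 ± 0.15), Atp6v0d2, a proton pump subunit (2.02 ± 0.20), Cd36, a fatty acid carrier (1.21 ± 0.06), Hao2, Cyp2b13 and Hamp2 were higher in KO. Sult3a1, Cyp3a44 and Ntrk2, which are female-biased as well, were lower in KO. Of 24 male-biased genes, 4 rose and 4 fell, with a median difference of -0.009, and 2 were shared in each direction (8.33% each). Cyp2d9 (2.30 ± 0.24) was shared and higher, and Egfr (-0.42 ± 0.05) and Slco1a1 were shared and lower. Of the Y-linked genes, Ddx3y and Eif2s3y lay between 0 and 8.84 units in all 18 libraries. The other two in the table, which have similar copies on the X chromosome, were tested and did not pass.

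Targets of RXR and its partner receptors rose more often than they fell. Of 42 tested, 21 rose and 5 fell, beside 10.3% and 8.53% of all genes tested. Of the 42, 7 were shared and higher (16.7%) and 2 shared and lower (4.76%), beside 3.65% and 3.21%. Cyp26a1, the retinoic acid hydroxylase whose promoter repeat is printed above, had 353, 402 and 562 units in KO libraries with TNFa, against 272, 210.3 and 212 in WT libraries. With TGFb it had 1527, 1370.4 and 1751 in KO and 733, 898 and 665 in WT libraries, and with CM 1115, 999 and 1109 in KO and 569, 357 and 503 in WT libraries. KO was above WT within each treatment, and the difference was 1.04 ± 0.11 (adjusted p = 5.9e-09). Dhrs3, a retinaldehyde reductase gene, differed by 1.08 ± 0.14, and Abcg1, a sterol exporter and target of the oxysterol receptors, by 1.40 ± 0.19.

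Rarb, with the other printed repeat, went down. It had 38.9, 60.9 and 109 units in KO libraries, against 63.4, 93.4 and 176 in WT libraries, and the genotypes overlapped in 2 of 3 treatments. The difference was -0.68 ± 0.23 (adjusted p = 0.035). This call was lost when any 1 of 7 libraries was left out (TNFa KO 2, TNFa WT 3, TGFb KO 1, TGFb WT 3, CM KO 1, CM KO 3 or CM WT 3), with differences from -0.66 to -0.60 and adjusted p from 0.0563 to 0.0876. It was also lost with means per genotype and replicate number (adjusted p = 0.067) and without the TNFa, TGFb or CM libraries (adjusted p = 0.056, 0.15 and 0.187).

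Of the 33 lists, interferon-stimulated genes, the antiviral set, held the largest share of shared falls. Of 55 tested, 32 fell and 4 rose, and 18 were shared and lower (32.7%) and 1 shared and higher, beside 3.21% and 3.65% of all genes tested. The median difference of the list was -0.42. Stat2 had 988, 766 and 1273 units in KO libraries with TNFa, against 1424, 1503 and 1892 in WT libraries. With TGFb it had 615, 536 and 423 in KO and 929, 978 and 1079.5 in WT libraries, and with CM 924, 862 and 1110.3 in KO and 1576, 2057 and 1824 in WT libraries. KO was below WT in each treatment, and the difference was -0.85 ± 0.09 (adjusted p = 3.5e-08).

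Several effectors of the antiviral response fell as well. Ifit1 had 1379.7, 2147 and 3771 units in KO libraries, against 2695, 3754 and 7557 in WT libraries, separate in each treatment (-0.75 ± 0.10, adjusted p = 9.2e-07). Gbp2 had 281, 459.5 and 700.2 units in KO libraries, against 446, 909.7 and 1325 in WT libraries, with overlap in 1 of 3 treatments (-0.77 ± 0.12, adjusted p = 1.6e-05). Zbp1, a sensor of unusual nucleic acids, differed by -1.08 ± 0.24, and Ifih1, encoding the RNA sensor MDA5, by -0.57 ± 0.08. Irgm2 differed by -0.69 ± 0.08. The gene models of Irgm2 and Igtp overlap in the table and Ifit3 and Ifit3b are near-identical copies, so their separate values are uncertain. Oas3, an oligoadenylate synthetase gene, was the shared exception at 0.58 ± 0.13.

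Of 31 tested genes of MHC class I and antigen presentation, 10 rose, 6 fell and 15 did not pass, where 10.3% of all genes tested rose and 8.53% fell. Of the 31, 2 were shared and higher (6.45%) and 5 shared and lower (16.1%), beside 3.65% and 3.21%. Tap1, the peptide transporter of class I presentation, had 479, 523 and 717 units in KO libraries, against 608, 878 and 1369.8 in WT libraries (-0.60 ± 0.09, adjusted p = 1.1e-05). Nlrc5, the activator of class I genes, differed by -0.49 ± 0.08, and Tap2 by -0.58 ± 0.17, a call that was lost without the TNFa libraries (-0.45, adjusted p = 0.13). The class II gene H2-Aa, expressed by macrophages and other presenting cells, had 224, 419 and 508 units in KO libraries, against 63.6, 139.5 and 202 in WT libraries (1.55 ± 0.17, adjusted p = 1.8e-08). Cd74, the class II chaperone, differed by 1.06 ± 0.22.

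Of 29 tested Kupffer cell and macrophage markers, 23 rose and 0 fell, beside 10.3% and 8.53% of all genes tested. Of these markers 13 were shared (44.8%), all higher, beside 3.65% of all genes tested. Their median difference was 1.48. Their summed value over 30 genes in the table ranged from 66601 to 69087 in KO libraries with TNFa, against 47952 to 49261 in WT libraries. With TGFb it ranged from 52649 to 57018 in KO and from 46685 to 49799 in WT libraries, and with CM from 54821 to 56559 in KO and from 32981 to 35720 in WT libraries. These sums rest mostly on more abundant members than the markers named next, whose WT means ran from 61.6 (Clec4f) to 1152 (Mpeg1). The defining Kupffer marker Clec4f had 93.0, 225 and 408 units in KO libraries, against 10.7, 60.0 and 117 in WT libraries (1.995 ± 0.26, adjusted p = 7.8e-07). Cd5l, a protein secreted by macrophages, had 429.9, 629 and 828 units in KO libraries, against 77.2, 131 and 184 in WT libraries, with no overlap (2.33 ± 0.14). Mpeg1, encoding the pore-forming protein perforin-2, differed by 1.29 ± 0.07, and Lyz2, lysozyme, by 1.38 ± 0.08. In such bulk libraries, more cells of a type and more RNA per cell cannot be told apart. The part of macrophage RNA in the other shared changes was not tested.

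Of 25 tested sinusoidal endothelial markers, 9 rose, 0 fell and 16 did not pass, where 10.3% of all genes tested rose and 8.53% fell. In this list 1 gene was shared (4%), beside 6.86% of all genes tested. Their sum ranged from 7414 to 7833 in KO libraries with TNFa, against 4112 to 4605 in WT libraries, from 6149 to 7471 in KO and 4646 to 5011 in WT libraries with TGFb, and from 5768 to 5896 in KO and 3944 to 4782 in WT libraries with CM. The shared member was Cdh5, encoding the endothelial cadherin (0.73 ± 0.08). The other defining markers of this cell type, Stab2 and Clec4g, overlapped between genotypes. Stab2 had medians of 189 units in KO and 162 in WT libraries, and Clec4g was low at 24.1 and 12.1. Of 13 stellate cell and fibroblast markers, 2 rose and 1 fell, and the defining markers Lrat, Des and Pdgfrb had medians of 26.1, 1.87 and 19.9 units in KO and 7.67, 0 and 9.76 units in WT libraries. Of 15 cholangiocyte markers, 1 rose and 5 fell. None of 8 lymphocyte and neutrophil markers passed.

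**Figure D5:**
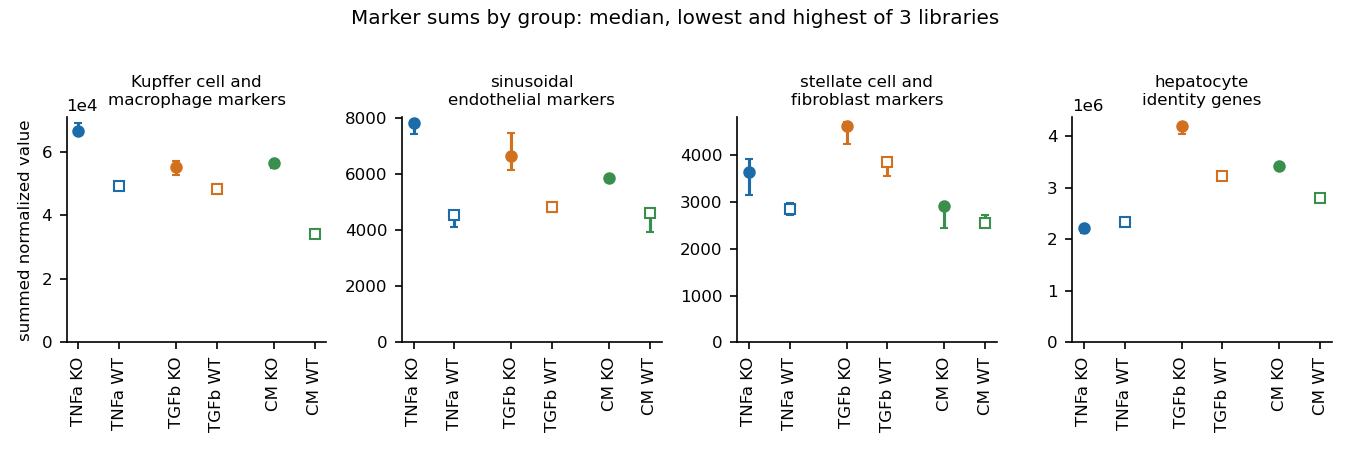
Summed normalized value of 4 marker lists by group (vertical axis from 0), with the median of 3 libraries as a point and the lowest and highest as a bar, KO filled and left of WT open. Kupffer and sinusoidal endothelial sums are higher in KO in all 3 treatments, and the sum of hepatocyte genes is higher in KO with TGFb and CM and lower in KO with TNFa. Sums are weighted to the most abundant genes, and Alb alone lies between 1290000 and 2730000 in the hepatocyte sum. The median difference of the hepatocyte list is 0.04 with TNFa, 0.35 with TGFb and 0.25 with CM.

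Target lists of the stimuli lay nearer to the background in shared genes, at 8.89% of each list against 6.86% of all genes tested. The genotype test was passed by 28.9% of the TNF list and 26.7% of the TGF-beta list, against 18.8% of all genes tested. Over all genes tested 10.3% rose and 8.53% fell. Of 45 TNF and NF-kappaB targets, 12 rose and 1 fell, and 3 were shared and higher and 1 lower, with Lcn2, an iron-siderophore binder, lower in KO (-0.55 ± 0.07) and the adhesion molecule gene Vcam1 higher (0.84 ± 0.11). Of 45 TGF-beta and matrix genes, 6 rose and 6 fell, with 2 shared in each direction. Of 41 cell cycle genes, 8 rose and 3 fell, with 2 shared in each direction. Of 50 nuclear genes of the respiratory chain, 24 rose and 0 fell but 1 was shared, Ndufa13 (0.76 ± 0.14), and of 13 mitochondrially encoded genes 6 rose and 0 were shared. Of 40 fatty acid oxidation genes, 22 rose and 0 fell, with 4 shared, among them Abcd2, a peroxisomal fatty acid carrier (1.17 ± 0.13). The test was passed by 48% of nuclear respiratory chain genes, 46.2% of mitochondrially encoded genes and 55% of fatty acid oxidation genes.

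Of 40 tested genes of the unfolded protein response and amino acid stress, 13 fell and 5 rose, and 4 were shared and lower (10%) and 1 shared and higher. The shares over all genes tested were 8.53% fallen, 10.3% risen, 3.21% shared and lower and 3.65% shared and higher. Xbp1, a transcription factor of the response, had 4650.0, 5533 and 6683 units in KO libraries, against 6162, 7264 and 8269.9 in WT libraries (-0.35 ± 0.06, adjusted p = 2.7e-05), and Pdia6, a protein disulfide isomerase gene, differed by -0.38 ± 0.06. Of 54 genes of acute-phase and secreted plasma proteins, 18 rose and 11 fell, with 8 shared and higher and 2 shared and lower. Il1rn, the interleukin 1 receptor antagonist, differed by 1.04 ± 0.07, and Apcs, serum amyloid P, by -0.58 ± 0.10.

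The balance of calls depended on how libraries were scaled. Once all libraries were scaled to one total, 2963 genes passed, of which 41.4% were higher in KO, against 54.6% with the deposited scaling, and the median difference over all genes tested moved to -0.05. The shared set then held 991 genes, 467 higher and 524 lower in KO, of which 727 were the same genes. Under that scaling 41 amino acid genes, 13 Kupffer cell markers and 36 drug-metabolism genes were shared and higher, and 14 interferon-stimulated genes were shared and lower.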

How the data were processed

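RNA of 18 hepatocyte libraries, 3 for each of 2 genotypes and 3 treatments, was measured. The authors deposited 1 table with a normalized signal per gene and library, made with DESeq2 as its name says. The authors also used Partek and STAR 2.7.8a with the mm39 build, per the submitters' processing notes, and no further settings are named. Per the labels' protocols, ribosomal RNA was depleted with a FastSelect kit and libraries were prepared with PrepX chemistry. Whether counting used strand is not stated, so overlapping and antisense genes cannot be told apart.

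Depth was estimated as the sum of values over the value of 1 read (19.4 to 35.6 M, median 23.4). Since 72.0% to 77.4% of values up to 200 reads lay within 0.05 of a whole multiple, whole reads were not recovered and no count model was used. End coordinates are the deposited stop less 1.

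The test used log2(value + 1) of the genes that reached 10 in 3 or more libraries. A limma-trend model (limma 3.58.1, R 4.3.3) of genotype plus treatment, with 14 residual and 16.2 prior degrees of freedom, gave KO against WT, two-sided, with Benjamini-Hochberg adjustment over all genes tested. A model with 6 group means gave the values within each treatment and the interaction. The genotype plus treatment model and the rule for shared genes were tested on simulated data. The model with 6 group means and the interaction test were not. The members and lists were chosen with earlier results of these data known, and lists are described by counts and medians with no set test. Genes were named by rule: Mtdh, the 12 largest (by the smallest of their 3 differences) and 6 most even shared changes in each direction (mean value of at least 50, KO and WT not overlapping in any treatment, and for the even ones differences of at least 0.5), up to 3 shared members of each list by p-value, and 3 genes on each side of the 0.5 limit. Some genes that the rule names are not reported here. Other genes near Mtdh and in the lists were named after their values were seen. Replicate numbers were not used to pair libraries in the main model. Same-numbered libraries of one genotype correlated by -0.06 to 0.16 (median 0.02) in their deviations from the group means, with 1 of 18 pairs over 0.1. Libraries of one genotype with other numbers correlated by -0.11 to 0.06 (median -0.004). These values do not settle whether 1 number was 1 mouse across treatments, in which case the libraries are not independent. Promoter windows came from RefSeq (GRCm38.p6) and matched 77.1% of tested genes, below the 80% needed to compare sets. Protein lengths were not used here. The alternatives were other pseudocounts, filters, scalings and models, the limit on similar size, and leaving out each library or treatment. Python 3.11.15, pandas 2.3.3, NumPy 2.4.6 and matplotlib 3.10.9 served for tables and figures.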

Additional observations from a re-analysis of the deposited data

Results flagged for a closer look

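Single libraries stood apart from the other 8 of their genotype, after the mean of each treatment was removed, in 4 of 216 groups of 9 libraries tested. Chance flags about 1 in 20 groups of independent values. Values centred by treatment are not independent, so that rate does not hold exactly here. The gap to the nearest library, as a share of the whole range, was 0.562 for Srgap3 in CM WT 3, 0.4932 for Creb3l2 in CM KO 3, 0.552 for Ndufa13 in CM WT 2 and 0.496 for Cdk6 in CM WT 1, each above Dixon's critical value for 9 samples. None of the 4 genes lost its call when any 1 library was left out.

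For 3 named shared genes the KO effect differed between treatments in size. Their single direction is a condition of the rule for shared genes. Cps1 differed by 0.77 with TNFa, 1.38 with TGFb and 1.05 with CM (interaction adjusted p = 0.021). Slc2a2 differed by 1.18 with TNFa, 1.55 with TGFb and 0.99 with CM (interaction adjusted p = 0.032), and Pck1 by 1.17 with TNFa, 1.52 with TGFb and 0.79 with CM (interaction adjusted p = 0.023).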

How the results depend on the processing

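Counts of shared genes depended on the limit for similar size. A limit of 0.67 left 407 (213 higher, 194 lower) and a limit of 0.33 gave 1646 (900 higher, 746 lower). Asking for a call within each treatment in place of similar size gave 408 (279 higher, 129 lower), of which 338 were in common. Without the TNFa libraries 1642 genes were shared (898 higher, 744 lower), where 2 differences and not 3 had to meet the limit. Without the TGFb libraries 1701 genes passed the genotype test (957 higher, 744 lower), from 12 libraries. No other alternative moved these counts by over 1.5 times. Leaving out 1 library at a time, 2469 to 2654 genes passed (1350 to 1452 higher, 1096 to 1216 lower), and 846 to 991 were shared (471 to 531 higher, 375 to 472 lower). With the replicate number as a block 2607 genes passed (1430 higher, 1177 lower) and 977 were shared (523 higher, 454 lower). A correlation within genotype and number was estimated at -0.04. Of 5048 results for 153 genes under alternatives, 5008 kept direction and call and 36 lost the call, in Rarb, Ptp4a2, Cldn1, Pak6, Nckap1, Pea15a, Syvn1, Tap2, Ifit3, Cdo1 and Gldc. Snd1, not called in any, changed sign in 4, with -0.0552 to 0.0279 without 1 library, 0.0248 without the TNFa libraries and 0.0472 without the CM libraries. Small counts of members against a list's direction varied without 1 library, from 0 to 3 for lower RXR partner targets and from 0 to 2 for higher interferon-stimulated genes. Depth limits low genes: of genes with a mean value under 50, 1.86% were shared.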
